A study of Mus musculus with 20 samples.

Results

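The mTOR complexes and the proteins that act directly on them were examined through 10 genes of mouse liver, Mtor, Rptor, Rictor, Mlst8, Deptor, Akt1s1, Tsc1, Tsc2, Rheb and Ddit4, out of the 53028 genes in the table. They were chosen by name as members of the pathway, by a rule that uses no measured value, although earlier results of these data were known. Male C57BL/6J mice on standard chow received locked nucleic acids (LNAs) against the snoRNA SNORA73, or control LNAs against GFP. The mice do not carry the GFP sequence. LNAs are short antisense oligonucleotides in which the sugar of some nucleotides, here called locked bases, is chemically locked. The series' design text gives an age of 8 weeks, 3 intraperitoneal injections of 3 mg/kg on alternate days, and livers taken 2 days after the last. The study's methods for liver polysomes instead give an age of 10 weeks and 3 injections over 1 week, followed by cycloheximide, which halts ribosomes on the mRNA, into the tail vein minutes before death, and the sample labels do not settle the age or the use of cycloheximide. From each of 10 mice, 5 per LNA, 1 library was made from total RNA of the liver lysate (the transcriptome) and 1 from RNA recovered from its polysome fractions (the translatome). The GFP LNA mice were numbers 1, 2, 3, 8 and 9, and the SNORA73 LNA mice were numbers 4, 6, 10, 11 and 12. In the sample labels the target appears as snoRA37, whereas the study's text names SNORA73. The LNA was given to the whole animal and whole liver was lysed, so fewer cells of a type and less RNA per cell cannot be told apart.

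mTOR is a protein kinase that couples nutrients and hormones to cell growth, and it works in a pair of complexes. mTORC1 contains raptor and promotes translation and ribosome production, whereas mTORC2 contains rictor and phosphorylates Akt. Both complexes share mLST8 and can bind the inhibitor DEPTOR. The Tsc1-Tsc2 complex switches off the small GTPase Rheb, which activates mTORC1, and in liver this pathway links feeding and insulin to protein and lipid synthesis. SNORA73 is a box H/ACA snoRNA needed for cleavage of ribosomal RNA precursors, and the comparison asked whether lowering it was accompanied by a difference in the mRNAs of the mTOR machinery or in how much of them sat on polysomes.

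The oligonucleotides are shown because they define the treated group. The paper states that, after its first redox measurements in liver, work in mice went on with SNORA73-2, the more potent LNA. The study lists a pair against SNORA73, given here 5′ to 3′ with locked bases in capitals. The sample labels do not say which one these mice received.
SNORA73 LNA 1: AAGTCgtaggaatatGCAGG
SNORA73 LNA 2: GACTCtgagaagtcgTAGGA
Each is 20 bases long with 10 locked bases, 5 at either end.

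Total RNA libraries held 20005389 to 42023390 estimated counts and polysome libraries 14852951 to 33824659. The libraries were polyA-selected, and the snoRNA itself was nearly unread (Snora73a at most 2 counts and Snora73b at most 4 in any library), so knockdown could not be checked in these data. Each library was correlated with the mean of the rest of its own LNA group and with the mean of all 5 libraries of the other. By this measure 4 total RNA libraries (mice 6, 9, 10 and 11) and 3 polysome libraries (mice 6, 9 and 12) lay nearer to the other group. The mean of more libraries favours the other group, and some gaps were small (mouse 11 in total RNA, 0.9803 against 0.9805). In total RNA, mice 9 and 10 had the lowest correlation with the mean of their own LNA group, so results were also computed without them. In polysome RNA the lowest in each group were instead mouse 2 (GFP LNA, 0.968) and mouse 11 (SNORA73 LNA, 0.9603). Levels are given in CPM, estimated counts per 1000000 of the scaled library total. The 6 hepatocyte markers summed to 39740 to 73030 CPM over the libraries, and none of the markers of other liver cell types was at 0 throughout. The 6 endothelial markers together reached 90.65 to 104.5 CPM in GFP LNA and 118.7 to 135.5 in SNORA73 LNA polysome libraries, and 116.5 to 142.8 against 141.4 to 155.5 in total RNA. The summed markers of every other cell type examined overlapped between the LNA groups in both RNAs. On polysomes the Kupffer sums ran from 118.4 to 207.2 CPM in GFP LNA and 122.4 to 218.2 in SNORA73 LNA livers. The stellate sums there ran from 131.2 to 195.8 and 145.1 to 189.9 CPM. Sums were not split by marker, and the part of these cell types in the LNA comparisons was not tested.

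All 10 genes were expressed above the filter in both RNAs, and none differed between SNORA73 LNA and GFP LNA livers past an FDR (Benjamini-Hochberg adjusted p over all genes tested) of 0.05. In total RNA, 0 of 10 passed, against 4 of all 13195 genes (0.0303%). In polysome RNA, 0 of 10 passed, against 2 of 13060 genes (0.0153%). Those counts of all genes depended on mouse 9: they were 59 and 17 without it and 97 and 31 without mice 9 and 10, still with 0 of the 10 genes. At an unadjusted p under 0.05 stood 1 of the 10 in total RNA, against 1141 of all genes, and 0 of the 10 in polysome RNA, against 1755. The 5 values of one LNA overlapped the 5 of the other for every one of the 10 genes in both RNAs, where 1.8% of all genes in total RNA and 3.22% in polysome RNA did not overlap. DESeq2 and limma-voom also called 0 of the 10, although DESeq2 called 68 transcriptome and 282 translatome genes where edgeR called 4 and 2. The 10 genes had a median log2 fold change of -0.06 (0.01 for all genes) in total RNA and of -0.11 (-0.01 for all genes) on polysomes.

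**Figure D1:**
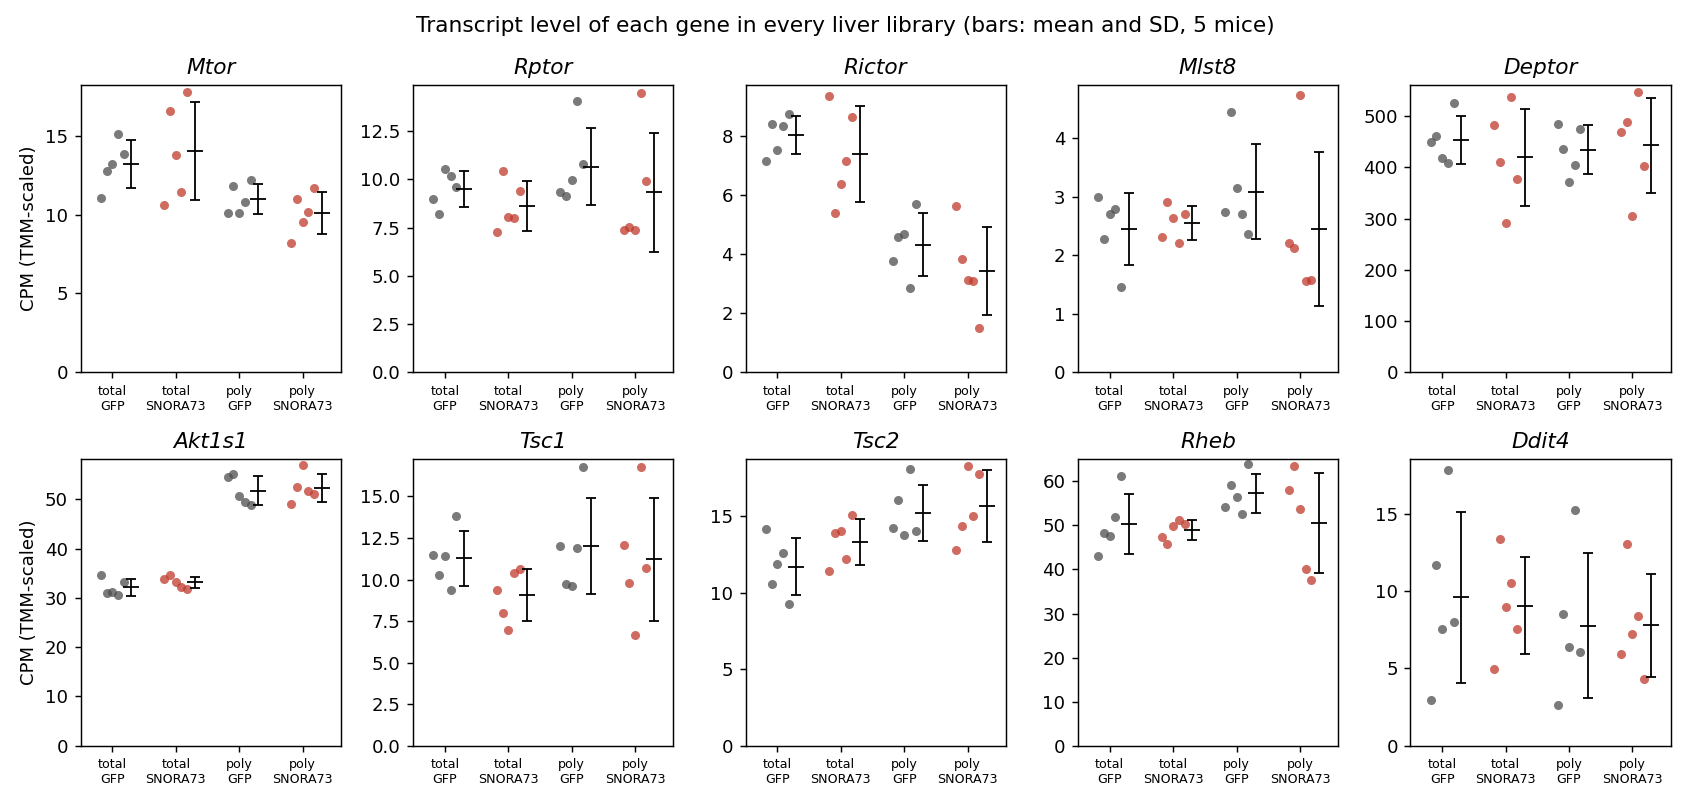
Level of each of the 10 genes in CPM (vertical axis, TMM-scaled, starting at 0) in every library, for total and polysome RNA of GFP LNA (grey) and SNORA73 LNA (red) livers. Points are single mice and bars the mean and SD of 5 mice; the grey and red points overlap in every panel within an RNA, while Akt1s1 sits at 30.6 to 34.7 in total RNA and 48.8 to 56.9 on polysomes.

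Mtor encodes the kinase itself (chromosome 4: 148448582 to 148557685, RefSeq on GRCm38.p6). In total RNA it was measured at 11.03, 12.8, 13.2, 15.1 and 13.9 CPM (scaled by the trimmed mean of M values, TMM) in GFP LNA mice 1, 2, 3, 8 and 9. In SNORA73 LNA mice 4, 6, 10, 11 and 12 it was measured at 10.6, 16.55, 13.8, 11.5 and 17.75 CPM. Mice 4 and 11 lay with the lowest control mouse and mice 6 and 12 above the highest, so the SNORA73 LNA group was wider and contained the range of the controls. The log2 fold change was 0.09 ± 0.15 (SE, 95% interval -0.23 to 0.41, FDR 0.907 by the edgeR quasi-likelihood test). On polysomes, GFP LNA mice held 10.1, 11.8, 10.1, 10.8 and 12.2 CPM and SNORA73 LNA mice 8.17, 10.98, 9.504, 10.2 and 11.7 CPM. The polysome log2 fold change was -0.13 ± 0.14 (SE, interval -0.44 to 0.19, edgeR FDR 0.751). The interval in total RNA thus ran from 0.853-fold to 1.33-fold, and the polysome interval from 0.739-fold to 1.14-fold.

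Rptor (chromosome 11: 119602905 to 119899591) encodes raptor, the scaffold that brings substrates to mTORC1. Its level was 9.51 ± 0.94 CPM in GFP LNA and 8.63 ± 1.29 CPM in SNORA73 LNA total RNA (mean ± SD, n = 5), a log2 fold change of -0.14 ± 0.12 (SE, edgeR FDR 0.809). On polysomes 3 of 5 SNORA73 LNA mice (4, 6 and 10) lay at 7.36 to 7.55 CPM, below every control mouse at 9.12 to 14.1 CPM, while mouse 11 reached 14.5 CPM and mouse 12 9.89 CPM. The polysome log2 fold change was -0.19 ± 0.22 (SE, interval -0.66 to 0.27, edgeR FDR 0.743).

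Rictor (chromosome 15: 6708349 to 6800401) encodes the defining subunit of mTORC2. In total RNA it lay at 7.17, 8.395, 7.535, 8.34 and 8.74 CPM in GFP LNA mice and at 9.34, 5.39, 6.375, 7.16 and 8.66 CPM in SNORA73 LNA mice. The controls lay within the wider SNORA73 LNA range, and the log2 fold change was -0.12 ± 0.15 (SE, edgeR FDR 0.863). On polysomes it lay at 3.77, 4.58, 4.68, 2.865 and 5.71 CPM in GFP LNA mice and at 5.62, 3.82, 3.12, 3.07 and 1.505 CPM in SNORA73 LNA mice. Mouse 12, with 21 counts, was the lowest of the 10, and the polysome log2 fold change of -0.34 ± 0.29 (SE, interval -0.96 to 0.28, edgeR FDR 0.658) moved between -0.58 and -0.15 as single mice were left out.

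Mlst8 (chromosome 17: 24473550 to 24479114), the small beta-propeller subunit of both complexes, had the fewest reads of the 10 genes, 22 to 118 counts per library. In total RNA it averaged 2.445 ± 0.61 CPM in GFP LNA and 2.55 ± 0.29 CPM in SNORA73 LNA livers (mean ± SD, n = 5). On polysomes the GFP LNA mice held 2.74, 4.45, 3.15, 2.71 and 2.36 CPM, and SNORA73 LNA mice 4, 6, 11 and 12 held 2.20, 2.13, 1.56 and 1.58 CPM, each below every control. SNORA73 LNA mouse 10 held 4.73 CPM, above every control. The log2 fold change was -0.33 ± 0.31 (SE, edgeR FDR 0.693) with all mice, -0.71 without mouse 10 (FDR 0.26) and -0.80 without mice 9 and 10 (unadjusted p 0.00836, FDR 0.203 in edgeR). A lower level on polysomes was therefore seen in 4 of 5 SNORA73 LNA mice and did not pass the test with or without the remaining one.

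The inhibitory proteins of the set, DEPTOR, PRAS40 and REDD1, act on mTORC1 by different routes. Deptor (chromosome 15: 55112317 to 55259273), whose protein binds mTOR in both complexes, was read deepest, with 5633 to 18668 counts. It averaged 453.4 ± 46.5 CPM in GFP LNA and 420.0 ± 95.3 CPM in SNORA73 LNA total RNA, and 434.7 ± 48.0 and 443.0 ± 93.1 CPM on polysomes (mean ± SD, n = 5). The log2 fold changes were -0.11 ± 0.15 and 0.03 ± 0.16 (SE, edgeR FDR 0.886 and 0.966). SNORA73 LNA mouse 10 was the lowest of the 10 mice in both RNAs (290.5 and 304.6 CPM) and SNORA73 LNA mouse 11 the highest (536.9 and 548.5 CPM), so the extremes of the gene belonged to the same LNA group.

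Akt1s1 (chromosome 7: 44849224 to 44855421) encodes PRAS40, a raptor-binding substrate of Akt that restrains mTORC1. In total RNA it lay at 34.7, 30.9, 31.15, 30.6 and 33.2 CPM in GFP LNA mice and at 33.9, 34.6, 33.1, 32.3 and 31.7 CPM in SNORA73 LNA mice. On polysomes it lay at 54.5, 55.1, 50.7, 49.5 and 48.8 CPM in GFP LNA mice and at 49.0, 52.5, 56.9, 51.75 and 51.1 CPM in SNORA73 LNA mice. This was the gene of the set with the smallest spread, a coefficient of variation of 4.59% over the 10 total RNA libraries and 5.29% over the polysome libraries. Its LNA intervals were the narrowest, -0.12 to 0.21 on the log2 scale around 0.04 in total RNA and -0.21 to 0.23 around 0.01 on polysomes (edgeR FDR 0.912 and 0.976).

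Ddit4 (chromosome 10: 59949675 to 59951770) encodes REDD1, a stress- and hormone-induced protein that acts through Tsc2 to lower mTORC1 activity. Total RNA held 2.97, 11.7, 7.535, 17.8 and 7.98 CPM in GFP LNA mice and 4.99, 13.3, 8.96, 10.5 and 7.54 CPM in SNORA73 LNA mice. The lowest and the highest mouse were both controls, a 5.99-fold range within the GFP LNA group. The log2 fold change of -0.07 ± 0.38 (SE) had a wide interval, from -0.90 to 0.76, and the edgeR FDR was 0.982. On polysomes the values were 2.605, 8.545, 6.41, 15.2 and 6.085 CPM against 5.91, 13.1, 7.23, 8.40 and 4.30 CPM, a log2 fold change of 0.00 ± 0.39 (SE, FDR 0.999 in edgeR).

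Tsc1 and Tsc2 form the GTPase-activating complex for Rheb, with Tsc1 (hamartin) stabilising the catalytic Tsc2 (tuberin). Tsc1 (chromosome 2: 28640993 to 28691172) was the only one of the 10 genes with an unadjusted p under 0.05 between the LNA groups. In total RNA it lay at 11.45, 10.3, 11.4, 9.37 and 13.8 CPM in GFP LNA mice and at 9.40, 7.98, 6.98, 10.4 and 10.6 CPM in SNORA73 LNA mice. SNORA73 LNA mice 6 and 10 lay below every control, and GFP LNA mice 1, 3 and 9 above every SNORA73 LNA mouse. The log2 fold change was -0.32 ± 0.14 (SE, interval -0.62 to -0.01, unadjusted p 0.0422, edgeR FDR 0.547). The highest and the lowest values belonged to mice 9 and 10, and without them the log2 fold change was -0.15 ± 0.12 (SE, unadjusted p 0.221 in edgeR). On polysomes it lay at 12.03, 9.75, 9.64, 11.9 and 16.8 CPM in GFP LNA mice and at 12.1, 9.82, 6.69, 16.75 and 10.7 CPM in SNORA73 LNA mice, with a log2 fold change of -0.10 ± 0.23 (SE, edgeR FDR 0.886) that became 0.19 without mice 9 and 10.

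Tsc2 (chromosome 17: 24595816 to 24632676) had a fold change of the opposite sign in total RNA, which did not pass the test. GFP LNA mice held 14.1, 10.6, 11.9, 12.6 and 9.29 CPM and SNORA73 LNA mice 11.4, 13.9, 14.0, 12.2 and 15.0 CPM, a log2 fold change of 0.19 ± 0.12 (SE, interval -0.08 to 0.45, edgeR FDR 0.733). On polysomes GFP LNA mice held 14.2, 16.0, 13.75, 18.1 and 14.0 CPM and SNORA73 LNA mice 12.75, 14.3, 18.3, 15.0 and 17.8 CPM, a log2 fold change of 0.04 ± 0.14 (SE, edgeR FDR 0.936). The gene ends overlap those of Pkd1 over 699 bases, and Pkd1 had 89 to 288 counts per library, so reads from the shared end may be divided between the genes.

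Rheb (chromosome 5: 24802823 to 24842361), the GTPase that activates mTORC1, averaged 50.4 ± 6.8 CPM in GFP LNA and 48.9 ± 2.3 CPM in SNORA73 LNA total RNA (mean ± SD, n = 5). On polysomes GFP LNA mice lay between 52.6 and 63.8 CPM, whereas SNORA73 LNA mice split into 37.6 and 40.0 CPM (mice 12 and 11) and 53.8 to 63.4 CPM (mice 10, 4 and 6). The log2 fold changes were -0.04 ± 0.10 and -0.18 ± 0.15 (SE, edgeR FDR 0.937 and 0.638).

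**Figure D2:**
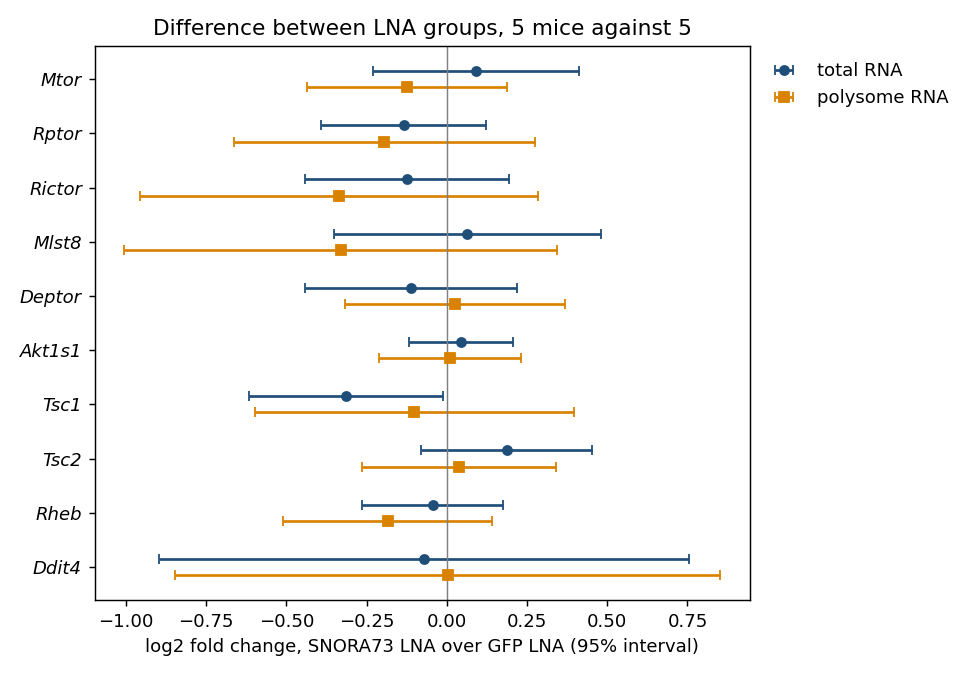
Log2 fold change of SNORA73 LNA over GFP LNA (horizontal axis) for the 10 genes in total RNA (circles) and polysome RNA (squares), with 95% intervals from the edgeR fits of 5 mice against 5. All intervals contain 0 except that of Tsc1 in total RNA, -0.62 to -0.01 before correction for multiple tests, and those of Ddit4 are the widest in both RNAs.

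Leaving out mice 9 and 10 moved several of these uncalled differences by more than 1.5 times or turned their sign. In total RNA the log2 fold change then was -0.04 for Rictor, -0.08 for Mlst8, 0.06 for Deptor, 0.10 for Tsc2, 0.03 for Rheb and -0.11 for Ddit4. In polysome RNA it was -0.06 for Mtor, -0.11 for Rptor, -0.18 for Rictor, 0.17 for Deptor, -0.04 for Akt1s1, -0.05 for Tsc2 and -0.04 for Ddit4. None of these passed the edgeR test.

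The comparison of polysome with total RNA asked how much of each mRNA was recovered on polysomes relative to its level in the lysate. The measure, here called polysome loading, is the log2 ratio of polysome to total CPM, and TMM scaling makes it relative to the typical gene. The study's methods prepared these RNAs differently. Total RNA was purified on a column with DNase, whereas polysome RNA was precipitated and treated with heparinase. Preparation thus differs along with the RNA in every loading value, and its part was not tested. In GFP LNA livers 3 of the 10 genes differed between the RNAs, 2 higher on polysomes (Akt1s1 and Tsc2) and 1 lower (Rictor). Over all 13795 genes, 42.8% differed, 21.8% higher and 21% lower. In SNORA73 LNA livers 3 of the 10 differed, 1 higher (Akt1s1) and 2 lower (Mtor and Rictor), against 38% of all genes, 19.7% higher and 18.2% lower. The counts of the 10 genes were thus near or below the share of all genes. The median size of the log2 ratio was 0.288 for the 10 genes and 0.439 for all genes in GFP LNA livers, and 0.224 and 0.4175 in SNORA73 LNA livers.

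Akt1s1 was higher on polysomes in 10 of 10 mice. Its loading was 0.65, 0.83, 0.70, 0.69 and 0.56 in GFP LNA mice and 0.53, 0.60, 0.78, 0.68 and 0.69 in SNORA73 LNA mice. Every polysome library lay above every total RNA library of its LNA group. The fitted difference was 0.69 ± 0.08 in GFP LNA livers (SE, 1.61-fold, interval 1.44 to 1.80, edgeR FDR 6.26e-07) and 0.66 ± 0.08 in SNORA73 LNA livers (SE, 1.58-fold, interval 1.41 to 1.76, edgeR FDR 1.62e-06). Across all genes the 5 polysome and 5 total RNA values did not overlap for 35% in GFP LNA and 22.7% in SNORA73 LNA livers. Among the 10 genes this held for Akt1s1 and Rictor in GFP LNA livers and for Akt1s1 in SNORA73 LNA livers.

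Rictor was lower on polysomes in 10 of 10 mice. Its loading was -0.92, -0.87, -0.68, -1.53 and -0.61 in GFP LNA mice and -0.73, -0.49, -1.03, -1.22 and -2.49 in SNORA73 LNA mice. The fitted difference was -0.89 ± 0.24 in GFP LNA livers (SE, edgeR FDR 0.00444), which is 0.54-fold, and -1.10 ± 0.24 in SNORA73 LNA livers (SE, edgeR FDR 0.00119), which is 0.467-fold. Mouse 12 stood lowest and mouse 8 next, and without mouse 12 the SNORA73 LNA value was -0.85 (edgeR FDR 0.0073). The calls for Akt1s1 and Rictor in both LNA groups passed under every alternative computed, each mouse left out included.

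Mtor was lower on polysomes in 10 of 10 mice, by less than Rictor. Its loading was -0.13, -0.11, -0.39, -0.49 and -0.18 in GFP LNA mice and -0.37, -0.59, -0.53, -0.17 and -0.60 in SNORA73 LNA mice. In SNORA73 LNA livers the fitted difference was -0.48 ± 0.14 (SE, 0.719-fold, edgeR FDR 0.00966). In GFP LNA livers it was -0.26 ± 0.14 (SE, edgeR FDR 0.127), and with the mouse as a block, which compares each polysome library with the total RNA library of the same liver, it was -0.26 ± 0.09 (SE, edgeR FDR 0.0205). The difference between the LNA groups was itself not past the threshold, -0.21 ± 0.19 (SE, interval -0.62 to 0.19, unadjusted p 0.288 in edgeR) and -0.20 ± 0.13 with the block (SE, unadjusted p 0.139, FDR 0.716 in edgeR).

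Tsc2 was higher on polysomes in 10 of 10 mice, by 0.01 to 0.60 in GFP LNA and 0.05 to 0.38 in SNORA73 LNA mice on the log2 scale. The fitted difference was 0.38 ± 0.13 in GFP LNA livers (SE, edgeR FDR 0.0215) and 0.23 ± 0.13 in SNORA73 LNA livers (SE, edgeR FDR 0.165). The GFP LNA call was lost when mouse 2, 8 or 9 was left out (edgeR FDR 0.121, 0.0766 and 0.0606), without mice 9 and 10 (FDR 0.0719) and without a filter on low counts (FDR 0.0827), and it was kept with the block (FDR 0.00337).

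Ddit4 lay at -0.45 to -0.19 in the 5 GFP LNA mice, all lower on polysomes, and at -0.80 to 0.24 in SNORA73 LNA mice, of which 4 of 5 were lower. Its fitted difference in GFP LNA livers was -0.31 ± 0.42 (SE, edgeR FDR 0.576) without and -0.30 ± 0.12 (SE, edgeR FDR 0.041) with the mouse as a block. The block thus raised the number of the 10 genes called in GFP LNA livers from 3 to 5, by Mtor and Ddit4, where 56.1% of all genes were called with the block, and left it at 3 in SNORA73 LNA livers, where 51.1% were. Rptor, Mlst8, Deptor, Tsc1 and Rheb did not pass in either LNA group. Their fitted differences ran from -0.06 (Deptor) to 0.33 (Mlst8) in GFP LNA livers and from -0.05 (Mlst8) to 0.30 (Tsc1) in SNORA73 LNA livers. Without mice 9 and 10, Mlst8 was at -0.45 (edgeR FDR 0.0962) and Rheb at 0.02 in SNORA73 LNA livers, and Tsc1 at 0.00 in GFP LNA livers.

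For none of the 10 genes did polysome loading differ between the LNA groups past the threshold in edgeR, against 1 of all 13795 genes (0.00725%). With all 10 mice, none of the 10 had an unadjusted p under 0.05 in this interaction test, where 401 of all genes did, and DESeq2 and limma-voom also called 0 of the 10. The fitted changes ran from -0.38 ± 0.38 for Mlst8 to 0.21 ± 0.28 for Tsc1 (SE). The Mlst8 value depended on mouse 10, at -0.76 without it (unadjusted p 0.0287, edgeR FDR 0.9999) and -0.70 without mice 9 and 10 (unadjusted p 0.0224, edgeR FDR 1.0). Without mice 9 and 10 the change was -0.12 for Rictor, -0.08 for Akt1s1, 0.35 for Tsc1 and 0.00944 for Rptor. With all mice and no block, the narrowest log2 interval was that of Akt1s1, -0.25 to 0.19. The widest was that of Ddit4, -1.14 to 1.33. The edgeR values of this paragraph come from fits that ignore which libraries share a liver. The Ddit4 interval is therefore not one for paired libraries. Per mouse, Ddit4 loading had an SD of 0.116 in GFP LNA and 0.389 in SNORA73 LNA livers.

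**Figure D3:**
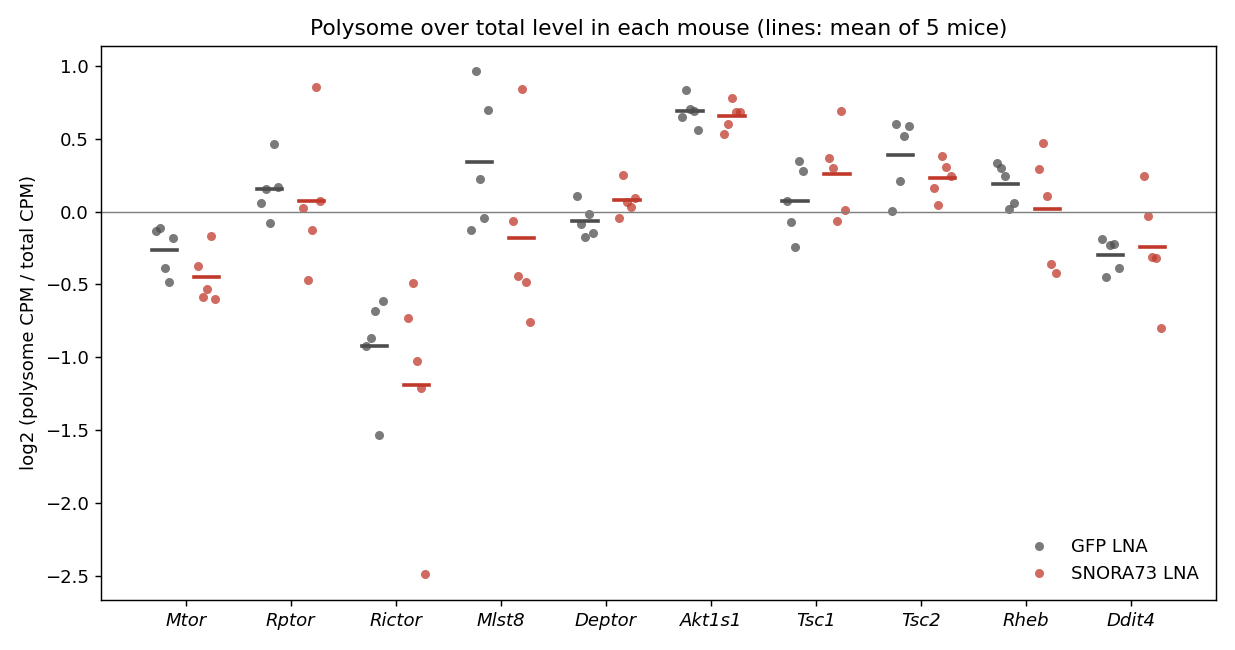
Polysome loading (vertical axis, log2 of polysome over total CPM) of the 10 genes in each mouse, GFP LNA in grey and SNORA73 LNA in red, with lines at the mean of 5 mice. All 10 points lie above 0 for Akt1s1 and Tsc2 and below 0 for Mtor and Rictor, and the red and grey points overlap for every gene.

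The levels of the same mouse in the 2 RNAs moved together for a few of the genes. Ddit4 had Pearson's r 0.930 and Spearman's rho 0.939 between log2 total and log2 polysome CPM over 10 mice (two-sided permutation p 0.00032 and 0.00022, adjusted over the 10 genes 0.0032 and 0.0022), and r 0.776 without the 2 mice farthest from the median in total RNA. GFP LNA mouse 1 was the lowest and GFP LNA mouse 8 the highest in both RNAs. Deptor had r 0.869 (permutation p 0.00408, adjusted 0.0204) and rho 0.685 (permutation p 0.0353, adjusted 0.177), with r 0.549 without the 2 farthest mice. Tsc1 had r 0.707 (adjusted permutation p 0.0809) but r 0.116 without the 2 farthest mice, and so rests on them. Mtor had r 0.616 (adjusted permutation p 0.130) and rho 0.588, with r 0.289 without the 2 farthest mice. For the other 6 genes r lay between -0.03 and 0.44, with adjusted permutation p of at least 0.402, and without the 2 farthest mice r lay between -0.72 (Rheb) and 0.41 (Rptor). Akt1s1 was among these 6, with r 0.151, and its total RNA levels span only 1.13-fold. Each LNA group holds 5 mice, too few for a value in each group alone. Deviations from the LNA group mean were also correlated over the 10 mice, without a p and without leaving out the farthest mice. They gave r 0.931 for Ddit4, 0.909 for Deptor, 0.766 for Tsc1 and 0.737 for Mtor. For the other 6 genes they gave r between -0.092 (Rheb) and 0.449 (Tsc2).

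**Figure D4:**
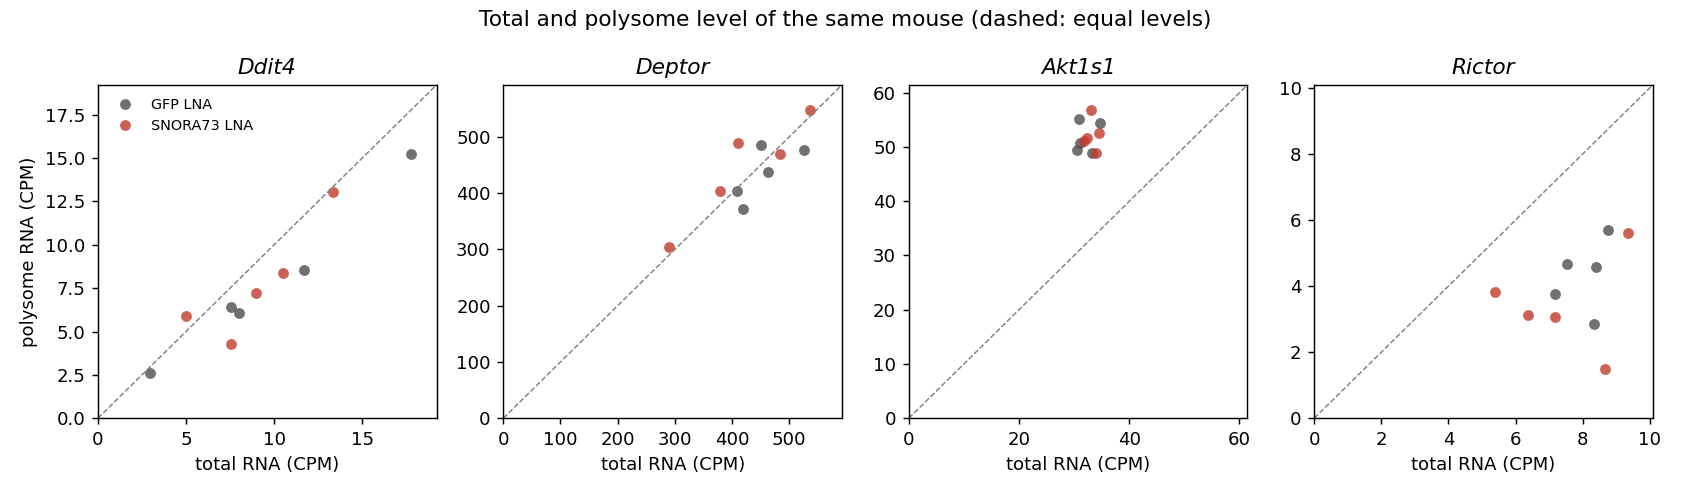
Total RNA level (horizontal axis) against polysome RNA level (vertical axis) of the same mouse in CPM for Ddit4, Deptor, Akt1s1 and Rictor, with GFP LNA in grey, SNORA73 LNA in red and a dashed line at equal levels. Deptor lies along the line and Ddit4 runs beside it with 9 of 10 mice below, while all 10 mice lie above it for Akt1s1 and below it for Rictor.

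Because mTORC1 controls the translation of mRNAs that begin with a 5′ terminal oligopyrimidine (TOP) tract, the first transcribed bases of the genes with a difference in loading are shown, with those of Rps6, a ribosomal protein gene of the TOP class, for comparison. Sequences are from RefSeq (GRCm38.p6) and 9 of the 10 genes matched, all but Deptor. Each line gives 30 bases from 5′ to 3′, 10 before and 20 from an annotated start, with the first 5 bases from that start in capitals.
Akt1s1, chr7:44850362-44850391, plus strand: ttgtgttcctAGAGCaggggcctctctggg
Tsc2, chr17:24632608-24632637, minus strand: ccccggaagtACGGGttgcgcttccggcag
Mtor, chr4:148448572-148448601, plus strand: cctccccaccTCCCTggcctagaagacagc
Rictor, chr15:6708371-6708400, plus strand: ggtttccggtGTTGTgactgaaacccgtca
Rps6, chr4:86857348-86857377, minus strand: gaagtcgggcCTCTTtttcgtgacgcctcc
A start was counted as TOP-like when a C was followed by 4 bases that were each C or T, on the transcribed strand. This was found at 0 of the 9 starts and at 2.51% of all 32851 starts in the table. Mtor begins with 5 pyrimidines but with a T, and the base before that T is a C. At Mlst8, whose start is not shown, a C likewise precedes 4 pyrimidines. The count of TOP-like starts thus depends on the exact start. The Akt1s1 start shown lies inside the RefSeq gene, which begins at 44849224. Those of Rictor and Tsc2 also lie inside their genes, whose upstream edges are 6708349 and, on the minus strand, 24632676. Starts farther upstream were not examined. An annotated start need not be the start used in liver, and the absence of these letters says nothing of any factor.

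Around the 10 genes, 8 lists of pathway genes were examined, with 82 genes in all, of which 77 were tested in total RNA and 78 in polysome RNA and in the loading comparisons. None passed an FDR of 0.05 by edgeR between SNORA73 LNA and GFP LNA livers in total RNA, in polysome RNA or in the change of loading. Of all genes, 0.0303%, 0.0153% and 0.00725% did. The lists were examined only in the main fit with all 10 mice. Other settings, some of which called more genes, were not examined for them. At an unadjusted p under 0.05 there were 5 of 77 (8.65% of all genes), 11 of 78 (13.4% of all genes) and 0 of 78 (2.91% of all genes). The tested pathway genes had a median log2 fold change of -0.002 between the LNA groups in total RNA, and of -0.08 on polysomes.

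In loading, 22 of the 78 pathway genes were higher and 16 lower on polysomes in GFP LNA livers, and 15 were higher and 15 lower in SNORA73 LNA livers (edgeR, FDR 0.05). Of all genes, 21.8% were higher and 21% lower in the former and 19.7% and 18.2% in the latter, and these shares are the background of the counts per list as well. The largest positive values belonged to Lamtor4 and Lamtor2, subunits of Ragulator, the complex that anchors Rag GTPases and thereby mTORC1 to the lysosome. Lamtor4 had a loading of 1.20 ± 0.13 in GFP LNA and 0.98 ± 0.13 in SNORA73 LNA livers (SE), and Lamtor2 1.14 ± 0.11 and 1.15 ± 0.11. The other Ragulator subunits ranged from -0.12 (Lamtor3) to 0.48 (Lamtor5, edgeR FDR 0.00188) in GFP LNA livers and from -0.31 (Lamtor3) to 0.23 (Lamtor5) in SNORA73 LNA livers, where none of them passed. Next among the genes past the threshold came Eif4ebp3 in GFP LNA livers and Pik3r2 in SNORA73 LNA livers. Eif4ebp3, a translation repressor related to the mTORC1 substrate 4E-BP1, lay at 0.90 ± 0.35 in GFP LNA livers (SE, edgeR FDR 0.0468). In SNORA73 LNA livers Eif4ebp3 lay at 0.64 ± 0.36 and did not pass (SE, edgeR FDR 0.168). Pik3r2, a regulatory subunit of PI3K, lay at 0.75 ± 0.17 in SNORA73 LNA and 0.77 ± 0.17 in GFP LNA livers (SE).

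The lowest loadings among the pathway genes belonged to Fnip1, the partner of folliculin, at -1.68 ± 0.26 in GFP LNA and -1.27 ± 0.26 in SNORA73 LNA livers (SE). Bmt2, also known as SAMTOR, a sensor of S-adenosylmethionine, lay at -1.38 ± 0.16 and -1.06 ± 0.16. Prkaa1, a catalytic subunit of AMPK, lay at -1.27 ± 0.15 in GFP LNA and -1.02 ± 0.15 in SNORA73 LNA livers (SE). Phlpp1, an Akt phosphatase, lay at -1.03 ± 0.20 in GFP LNA and -1.25 ± 0.21 in SNORA73 LNA livers (SE). Within the lists, the sensors and folliculin group had 0 higher and 3 lower of 9 in GFP LNA and 0 higher and 4 lower of 9 in SNORA73 LNA livers. The GATOR and KICSTOR group had 5 higher and 1 lower of 11, and 4 higher and 1 lower of 11. The assembly and accessory subunits had 3 higher and 0 lower of 8, and 2 higher and 0 lower of 8. The group of Rag and Ragulator had 3 higher and 0 lower of 9, then 2 higher and 1 lower of 9. AMPK with its activating kinase had 2 higher and 3 lower of 9 in both LNA groups, and PI3K with Akt had 3 higher and 4 lower of 11, then 2 higher and 4 lower of 11. The kinase and translation substrates had 3 higher and 1 lower of 11, then 3 higher and 0 lower of 11, and the other substrates 3 higher and 4 lower of 10, then 0 higher and 2 lower of 10.

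The genes whose total RNA levels ranked the 10 mice most like Mtor were B230118H07Rik (Spearman's rho 0.976, Pearson's r 0.940), Srbd1 (0.952, 0.894) and Fig4 (0.952, 0.945). Those most like Ddit4 were Stbd1 (rho 0.964, r 0.913), Ubl4a (0.891, 0.667) and Cyp2c39 (0.891, 0.878). They were the highest of all 13195 genes over the same 10 libraries and are a description, for which no p is given.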

How the data were processed

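RNA was polyA-selected and sequenced as 100 bp stranded paired-end reads. The deposited values are estimated counts per Ensembl gene, not normalized. The authors trimmed reads with fastp, removed rRNA reads with bowtie, quantified transcripts with kallisto and summed them to genes with tximport, on GRCm38 per the labels. Whether kallisto used the strand is not given in the sources used here, so reads shared with overlapping genes (Pkd1 with Tsc2, Rptoros with Rptor) remain uncertain, and overlapping Angptl7 and Bricd5 had at most 9 and 2 counts.

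The table of 53028 genes (51903 matched to symbols) was assigned to samples by column name. Counts were rounded to whole numbers, TMM-scaled and fitted in R 4.3.3 with edgeR 4.0.16 (glmQLFit, glmQLFTest), keeping genes with CPM above 0.5 in at least 4 libraries, with Benjamini-Hochberg adjustment at 0.05 over all genes. This is the filter of the study, which used limma-voom and left out 1 unnamed mouse per group. Total and polysome RNA were tested apart. Loading and its change were tested in one model over 20 libraries, and printed CPM use the TMM factors of that model. Intervals are 95% from the fit. Alternatives were limma 3.58.1 (voom), DESeq2 1.42.0, its size factors, library totals without TMM, no filter, mice left out and the mouse as a block. Mouse numbers in the labels pair the libraries, and deviations of paired libraries correlated at 0.118 to 0.596, highest with the same mouse for 9 of 10 (mouse 6 was at 0.118, against 0.254 with another mouse). The script was tested on simulated counts. Members and lists were chosen with earlier results of these data known. In the loading comparisons, pathway genes past the threshold were named, at most 3 in each direction and comparison by size of log2 fold change. The other Ragulator subunits are given beside them, passed or not. The 4 genes under Other observations had an unadjusted edgeR p under 0.05 between LNA groups in both RNAs and did not pass the threshold.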

Additional observations from a re-analysis of the deposited data

Results flagged for a closer look

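Of 60 sets of 5 values examined (levels in 4 groups and loading in 2 for each of the 10 genes), 1 held a mouse far from the other 4. In polysome RNA of SNORA73 LNA livers, Mlst8 was at 4.73 CPM in mouse 10, against 1.56 to 2.20 CPM in mice 4, 6, 11 and 12, a gap of 0.798 of the whole range where 0.71 is the limit for 5 values. Chance alone flags about 1 in 20 such sets. The mouse's total RNA value of 2.63 CPM lay within its group.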

How the results depend on the processing

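With 5 mice a group, a difference whose printed interval contains 0 cannot be told from 0 in that fit. What sets the width of the intervals (depth or spread between mice) was not tested. The loading fits without a block do not pair the libraries of a mouse. With the block, the SE of Mtor and Ddit4 loading in GFP LNA livers was smaller. None of the 10 genes was called between LNA groups, in either RNA or in loading, under any alternative. Counts of all genes called moved with the setting and the cause was not tested. In total RNA they were 68 with DESeq2, 2 with library totals without TMM, 13 without a filter, 97 without mice 9 and 10, 102 with limma-voom without mice 9 and 10 (a combination added after seeing the data) and 1 to 59 with single mice left out, the highest without mouse 9. In polysome RNA they were 282, 0, 72, 31, 28 and 0 to 17, again highest without mouse 9. For the change in loading they were 0 with limma-voom, 7 with DESeq2, 0 without mice 9 and 10 and 1 with each mouse left out. Of the DESeq2 calls, 69.1% in total RNA and 82.3% in polysome RNA were higher with SNORA73 LNA. In loading, single mice left out gave 4741 to 6271 genes in GFP LNA and 4150 to 5342 in SNORA73 LNA livers, and 2 to 3 and 3 of the 10 genes. With the mouse as a replicate block, 7738 and 7048 genes and 5 and 3 of the 10 were called, the block adding Mtor and Ddit4 in GFP LNA livers and changing no other call of the 10 genes.

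Directions of uncalled LNA log2 fold changes near 0 were not stable. Library totals without TMM moved the median of all genes to -0.138 (from 0.007) for the transcriptome and to -0.165 (from -0.011) for the translatome, and with it Mtor (-0.0523), Mlst8 (-0.0812) and Akt1s1 (-0.10) in total RNA and Deptor (-0.12), Akt1s1 (-0.15), Tsc2 (-0.13) and Ddit4 (-0.15) in polysome RNA turned negative. Without mice 9 and 10, by edgeR and by limma-voom, signs turned for Mlst8 (-0.078 and -0.0535), Deptor (0.0568 and 0.0474) and Rheb (0.0304 and 0.0326) in total RNA and for Akt1s1 (-0.0361 and -0.0351), Tsc1 (0.19 and 0.17) and Tsc2 (-0.0486 and -0.0486) in polysome RNA. By edgeR but not limma-voom they turned for Ddit4 in polysome RNA (-0.0401), and by edgeR, the tool used there, for Rptor in the change of loading (0.00944). Ddit4 in total RNA turned with limma-voom (0.12, and 0.11 without mice 9 and 10), and without a filter Akt1s1 (-0.00502) and Ddit4 (-0.003997) turned in polysome RNA. With single mice left out, total RNA values ran from -0.00639 to 0.17 for Mtor, -0.0784 to 0.14 for Mlst8, -0.10 to 0.0285 for Rheb and -0.31 to 0.26 for Ddit4. Polysome values ran from -0.0504 to 0.14 for Deptor, -0.013 to 0.0373 for Akt1s1, -0.28 to 0.05 for Tsc1, -0.0174 to 0.11 for Tsc2 and -0.26 to 0.39 for Ddit4. Loading in SNORA73 LNA livers ran from -0.14 to 0.26 for Rptor, -0.45 to 0.085 for Mlst8 and -0.0695 to 0.15 for Rheb, and its change from -0.30 to 0.0919 for Rptor, -0.35 to 0.036 for Rictor and -0.062 to 0.0121 for Akt1s1.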

Other observations

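Of the pathway genes, 4 had an unadjusted p under 0.05 between LNA groups in both RNAs (Larp1, Rragd, Sesn1 and Tti1), were chosen here after their values were seen, and did not pass the FDR in either RNA. Tti1, a subunit of the co-chaperone that assembles mTOR and related kinases, was measured in total RNA at 4.11, 3.195, 4.145, 4.07 and 3.555 CPM in GFP LNA mice 1, 2, 3, 8 and 9 and at 5.48, 4.69, 6.375, 5.32 and 4.65 CPM in SNORA73 LNA mice 4, 6, 10, 11 and 12. The groups did not overlap in total RNA, where 1.8% of all genes did not overlap, and overlapped on polysomes. Its log2 fold change was 0.47 ± 0.13 in total RNA (SE, edgeR FDR 0.357) and 0.70 ± 0.19 on polysomes (SE, edgeR FDR 0.165).

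Rragd, a Rag GTPase that binds mTORC1, was at 316 counts in total RNA and 196 on polysomes of GFP LNA mouse 9, and at 9 to 36 counts in total RNA and 0 to 24 on polysomes of the other 9 mice. Its log2 fold change of -2.004 ± 0.89 in total RNA (SE, edgeR FDR 0.547) and -2.60 ± 1.02 on polysomes (SE, edgeR FDR 0.297) is set beside that single mouse, and whether the value belongs to the LNA was not tested.

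Larp1, which binds TOP mRNAs downstream of mTORC1, had a log2 fold change of 0.25 ± 0.10 in total RNA and 0.41 ± 0.16 on polysomes (SE, edgeR FDR 0.521 and 0.301). On polysomes 5 of 5 SNORA73 LNA mice lay at 181.0 to 334.3 CPM and the controls at 156.0 to 191.8 CPM, so the groups overlapped. Sesn1, a stress-induced sensor upstream of GATOR, had -0.30 ± 0.13 and -0.44 ± 0.18 (SE, edgeR FDR 0.542 and 0.32).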
